A study of Mus musculus with 3 samples.

Results

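The 10 genes described here act in prostanoid and leukotriene synthesis and reception, and their transcripts were measured in mouse macrophages. They were Pla2g4a, Ptgs1, Ptgs2, Ptges, Tbxas1, Hpgds, Alox5, Alox5ap, Ptger2 and Ptger4, and every non-control probe that carried one of these names was taken, which gave 12 probes in 21 spots for 10 of the 34821 gene names on the array. Bone marrow-derived macrophages (BMDMs) of C57BL/6J mice, grown from marrow with M-CSF, were stimulated for 20 h with CpG, with IFN-g+IL-10RB, or with all agents together (triple). CpG is DNA that activates TLR9, IFN-g is a cytokine that activates macrophages, and IL-10RB is an antibody that blocks the receptor of the suppressive cytokine IL-10. The study asked which genes accompany the uptake of live cells by macrophages. It measured this uptake with CpG, with IFN-g+IL-10RB and with all agents together, and examined it further under the combined agents. Each condition had 1 Agilent array, no unstimulated array was analysed, and so no difference below has a replicate check or a p-value.

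Prostanoids and leukotrienes are short-lived lipid mediators made from arachidonic acid. The phospholipase encoded by Pla2g4a releases arachidonic acid from membranes, cyclooxygenases convert it to PGH2, and terminal synthases turn PGH2 into PGE2, PGD2 or thromboxane. In the other branch, 5-lipoxygenase and its helper protein FLAP make LTA4, the precursor of LTB4 and of the cysteinyl leukotrienes. Macrophages carry both branches, and Ptgs2 is a textbook gene of their inflammatory response, whereas Ptgs1 is known as the constitutive isoform.

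In triple, Ptgs2 was the brightest of its 3 arrays by a wide margin, whereas Ptgs1 and Alox5 were no longer well above background, the scanner software's mark for a detected signal. The promoters of these 3 genes are shown because the cyclooxygenase isoforms went opposite ways and because Alox5, like Ptgs1, was not detected in triple. Each is the 250 bases before the gene's start in RefSeq (build GRCm38.p6, 5′ to 3′ on the gene's strand), and capitals mark matches to an NF-kB motif on either strand, read here as 3 G and 2 C separated by 5 bases of any kind. They lie at chr1:150099781-150100030 on the + strand for Ptgs2, at chr2:36230176-36230425 on the + strand for Ptgs1, and at chr6:116461179-116461428 on the - strand for Alox5.
Ptgs2: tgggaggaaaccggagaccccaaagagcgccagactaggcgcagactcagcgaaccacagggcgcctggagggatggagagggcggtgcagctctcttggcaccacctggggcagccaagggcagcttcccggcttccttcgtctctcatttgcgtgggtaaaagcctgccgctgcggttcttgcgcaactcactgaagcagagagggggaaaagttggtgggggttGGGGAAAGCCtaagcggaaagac
Ptgs1: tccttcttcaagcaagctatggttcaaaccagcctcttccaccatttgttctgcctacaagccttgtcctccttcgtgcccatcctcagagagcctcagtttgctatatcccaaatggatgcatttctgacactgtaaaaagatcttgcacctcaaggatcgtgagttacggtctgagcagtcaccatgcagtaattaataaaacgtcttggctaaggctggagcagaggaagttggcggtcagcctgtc
Alox5: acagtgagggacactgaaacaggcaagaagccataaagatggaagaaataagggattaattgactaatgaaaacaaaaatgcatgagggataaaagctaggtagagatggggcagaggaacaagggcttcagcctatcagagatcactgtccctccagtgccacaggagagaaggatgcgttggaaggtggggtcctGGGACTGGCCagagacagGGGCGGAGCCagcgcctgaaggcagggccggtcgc

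The NF-kB letters began 23 bases before the start of Ptgs2 and 53 and 35 bases before that of Alox5, and they were not found in the window of Ptgs1, although a match was present there when 50 bases after the start were included. Such letters are common, since 45.8% of 32851 RefSeq promoter windows of this length held them and they were present both in Ptgs2, bright in triple, and in Alox5, not detected there. The other motifs searched on both strands were the TATA box with the letters TATAAA, the core of the cAMP response element with CGTCA, the E-box with CACGTG, the gamma-activated site with TTCNNNGAA, and the interferon-stimulated element, read as GAAA repeated after 2 bases of any kind. All windows held them at 12.4%, 17.8%, 6.02%, 7.02% and 2.98% in that order. None was found in these 3 windows, which end at RefSeq's start, and where transcription begins in these cells was not tested. Just after RefSeq's start of Ptgs2, at chr1:150100036-150100060 on the + strand, the core of the cAMP response element and the E-box overlapped in 1 stretch, in capitals here.
Ptgs2 start: caccactaCGTCACGTGgagtccgc

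The joined letters were searched after they had been seen, and 0.451% of the windows held them on either strand when 50 bases after the start were included. Windows were found for 9 of the 10 genes, Alox5ap being the exception. The NF-kB letters were in 4 of the 9, those of Ptgs2, Ptges, Alox5 and Ptger4, and the TATA box was in that of Tbxas1 alone. The G and C content was 61.6% for Ptgs2, 48% for Ptgs1 and 52.8% for Alox5, beside a median of 52.4% over all windows. A match of letters is a description and was not tested as a binding site.

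Values are linear intensities, namely the signals that the scanner software had already processed. For folds, the log2 signal was shifted by each array's 75th percentile, which was 4580 for CpG, 4513 for IFN-g+IL-10RB and 4401 for triple over the probes detected on all arrays. A gene with more than 1 probe was represented by the brightest. A fold was called past 2-fold only where the brighter array was well above background. A fold whose dimmer array was not is given as a nominal lower bound ("at least"). The bound takes that array's signal or its lowest detected signal, whichever is higher. It is not a strict limit and the true fold can be smaller. Signals brighter than the lowest detected one could be undetected, such as Cmklr1 at 29.5 in triple. The noise between spots of the same probe gave a technical SD of 0.13 for a log2 fold between single spots, and the software's own error of the detected signals of these genes was 10.0% to 11.3%. Neither contains the spread between cultures, which was not measured. Because RNA of whole cultures was measured, fewer cells making a transcript and less RNA per cell cannot be told apart.

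The labels were checked against marker genes. All 9 macrophage markers, among them Csf1r and Cd68, were well above background on every array. Of 5 genes that respond to IFN-g, the summed signal was 13519 in CpG, 427530 in IFN-g+IL-10RB and 657798 in triple. Ciita, 1 of these 5, did not follow the sum, at 114, 258 and 63.3 in the same order. Of 5 genes that respond to TLR ligands, all were detected in CpG and triple and only Tnf in IFN-g+IL-10RB, at 7771 beside 15636 in CpG and 90432 in triple. The arrays shared 1 slide and 1 scan time, 44.4% to 46.0% of spots were well above background, and no spot was saturated.

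**Figure D1:**
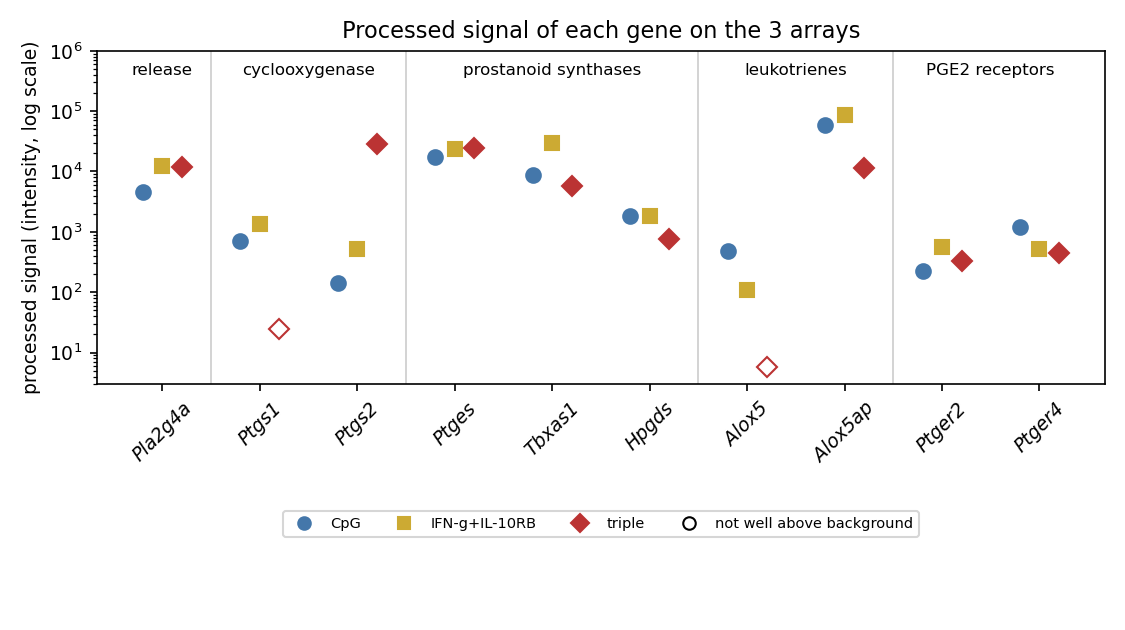
Processed signal (log axis) of the 10 genes on the array of CpG (circles), IFN-g+IL-10RB (squares) and triple (diamonds), ordered by role, with 1 value per array and open symbols for signals not well above background. Ptgs2 was highest in triple at 29014, and Ptgs1 and Alox5 have open symbols there; heights are not comparable between genes, since each has its own probe.

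Pla2g4a, the cytosolic phospholipase that starts both branches, was higher in both conditions that contained IFN-g. Its signal was 4567 in CpG, 12278 in IFN-g+IL-10RB and 11984 in triple. The last 2 arrays did not differ beyond the noise between spots, with a log2 fold of 0.00, whereas triple was 2.73-fold higher than CpG.

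The cyclooxygenase genes went opposite ways in triple. Ptgs2, the inducible isoform known as COX-2, had a signal of 142 in CpG, 513 in IFN-g+IL-10RB and 29014 in triple. Its probe, at chr1:151954744-151954803 of mm9, was spotted 10 times on each array. These spots ran from 119 to 154, from 475 to 598 and from 26891 to 30250 in that order, so the spots of the arrays did not overlap. Such spots measure the same sample again and are not replicates of the condition. Triple was 58.0-fold higher than IFN-g+IL-10RB and 212-fold higher than CpG, on log2 scales of 5.86 and 7.73. CpG alone was 3.66-fold lower than IFN-g+IL-10RB.

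Ptgs1, the constitutive isoform known as COX-1, went the other way. Its signal was 709 in CpG and 1337 in IFN-g+IL-10RB, and in triple it was 25.04, which was not well above background. The fold was at least 52.0-fold lower in triple than in IFN-g+IL-10RB and at least 27.2-fold lower than in CpG. These bounds depended on how dim signals were treated. Normexp correction, which here added an offset of 50, gave log2 folds of -3.71 and -2.82 in place of -5.70 and -4.77. The parts of the correction and of the offset were not separated. The difference between CpG and IFN-g+IL-10RB, a log2 fold of -0.94, did not pass 2-fold. Ptgs1 has a single probe, at chr2:36107644-36107703 of mm9 and base 2718 of its transcript.

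Ptges encodes the inducible PGE2 synthase that is known to act with COX-2, and its 2 probes disagreed. The brighter probe, which begins at base 3583 of the transcript, gave 17645 in CpG, 24002 in IFN-g+IL-10RB and 24090 in triple, and no comparison passed 2-fold. The other, which begins at base 364 and so lies 3219 bases nearer the 5′ end, gave 65.7 in CpG, 31.2 in IFN-g+IL-10RB, where it was not well above background, and 2157 in triple. By this probe triple was at least 70.8-fold higher than IFN-g+IL-10RB and 34.2-fold higher than CpG. The statement that Ptges did not pass 2-fold therefore holds for the brighter probe only, and which probe follows the PGE2 synthase mRNA was not tested.

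**Figure D2:**
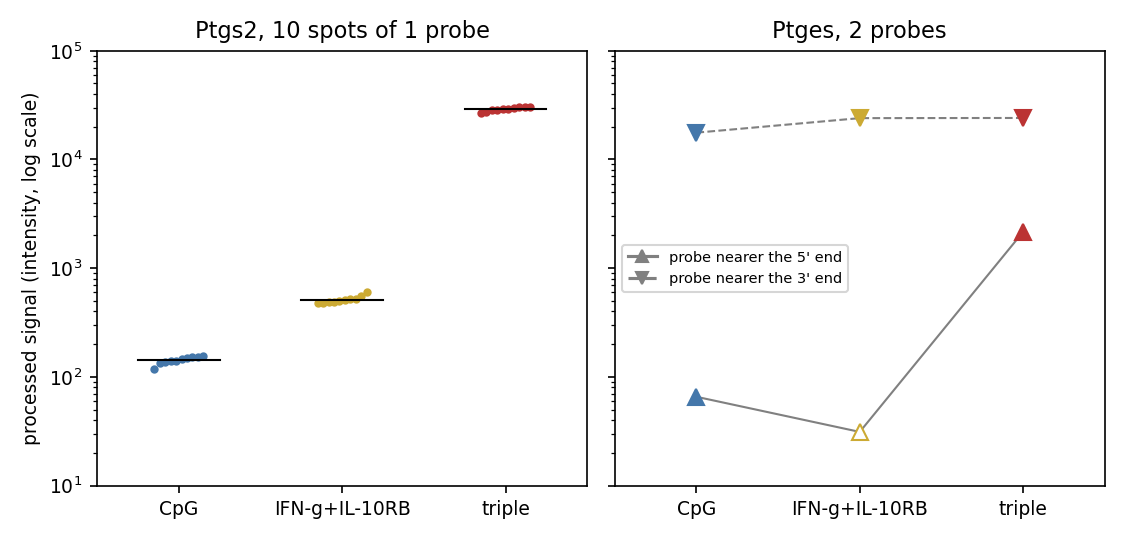
Left, the 10 spots of the Ptgs2 probe on each array (points, sorted by signal, with the geometric mean as a line). Right, the probes of Ptges on the same log axis of processed signal, where the probe nearer the 3′ end stayed between 17645 and 24090 and the probe nearer the 5′ end was at 65.7 in CpG and at 2157 in triple; the open symbol was not well above background.

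Tbxas1, thromboxane A synthase, was brightest in IFN-g+IL-10RB. Its signal was 8734 in CpG, 29955 in IFN-g+IL-10RB and 5811 in triple. Relative to IFN-g+IL-10RB it was 5.03-fold lower in triple and 3.48-fold lower in CpG, while triple and CpG differed by a log2 fold of -0.53. A second probe of the same name was not well above background on any array.

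Hpgds, the PGD2 synthase of blood cells, was lower in triple than in either other array. The signals were 1865 in CpG, 1813 in IFN-g+IL-10RB and 754 in triple. The folds were 2.38-fold lower than CpG and 2.34-fold lower than IFN-g+IL-10RB, and the log2 fold between those arrays was 0.02, within the noise between spots.

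Alox5, which encodes 5-lipoxygenase, was highest in CpG and not detected in triple. Its signal was 484 in CpG, 110 in IFN-g+IL-10RB and 5.73 in triple, the last not well above background. CpG was 4.35-fold higher than IFN-g+IL-10RB, whereas triple was at least 31.8-fold lower than CpG and at least 7.31-fold lower than IFN-g+IL-10RB. CpG alone thus stood above IFN-g+IL-10RB and the combination of both stood below it, each by a single array. The size of the bound depended on how dim signals were treated. Normexp correction with its offset of 50 gave a log2 fold of -1.07 against IFN-g+IL-10RB in place of -2.87.

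Alox5ap, which encodes FLAP, was bright on all arrays and was lower in triple. Its signal was 59068 in CpG, 87851 in IFN-g+IL-10RB and 11550 in triple. Triple was 7.42-fold lower than IFN-g+IL-10RB and 4.91-fold lower than CpG, and the arrays of CpG and IFN-g+IL-10RB differed by a log2 fold of -0.59. The local background of the single spot of Alox5ap was marked as an outlier by the software on all 3 arrays. This local background does not enter the processed signal.

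The PGE2 receptors that raise cAMP did not follow Ptgs2. Ptger2, the EP2 receptor, had a signal of 227 in CpG, 570 in IFN-g+IL-10RB and 333 in triple, so that CpG was 2.55-fold lower than IFN-g+IL-10RB and triple passed 2-fold against neither. Ptger4, the EP4 receptor, gave 1201 in CpG, 528 in IFN-g+IL-10RB and 449 in triple. CpG was 2.24-fold higher than IFN-g+IL-10RB and triple was 2.57-fold lower than CpG, while triple and IFN-g+IL-10RB differed by a log2 fold of -0.20, within 2 technical SD.

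**Figure D3:**
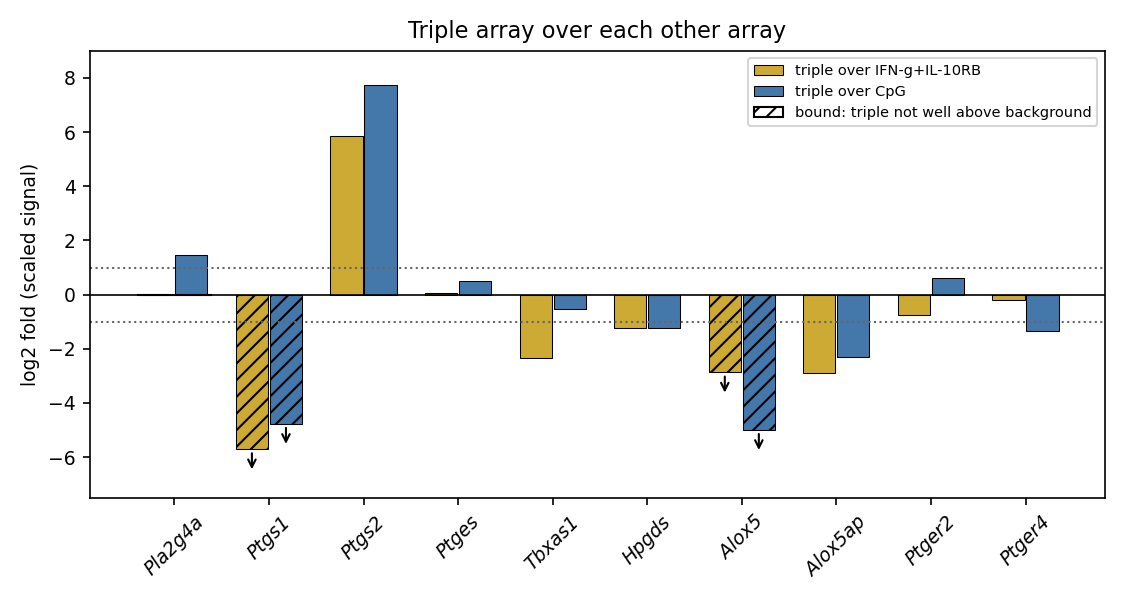
Log2 fold of the scaled signal of triple over IFN-g+IL-10RB (yellow) and over CpG (blue) for the 10 genes, 1 array per condition, with dotted lines at 2-fold. With Ptges shown by its brighter probe, Ptgs2 stands alone above the upper line in both comparisons. Ptgs1, Hpgds, Alox5 and Alox5ap lie below the lower line in both. Hatched bars with arrows are nominal lower bounds of the decrease.

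Across the 10 genes, triple was past 2-fold higher than IFN-g+IL-10RB for 1 and lower for 5, where 3.56% and 5.82% of all 34813 genes measured were called. Against CpG, 2 were higher and 5 lower, beside 4.12% and 5.6% of all genes. For CpG over IFN-g+IL-10RB, 2 were higher and 4 lower, beside 2.75% and 3.19%. These shares rise to 6.6% and 10.8%, 7.54% and 10.2%, and 5.04% and 5.84% among genes detected on either array, and all 10 genes were detected on at least 1 array of each comparison. The 3 comparisons share arrays, so that an error in 1 array enters 2 of them.

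With each gene at its brightest probe, Ptgs2 was the gene higher in triple than in both other arrays, a pattern of 2.09% of all genes. Ptgs1, Hpgds, Alox5 and Alox5ap were lower than in both, a pattern of 3.07%. By its dimmer probe Ptges was also higher in triple than in both, at least 70.8-fold over IFN-g+IL-10RB and 34.2-fold over CpG. The lowest array was triple for 6 genes and CpG for 4, and IFN-g+IL-10RB was the lowest for none. Of the 20 gaps between neighbours in these orders, 4 were under 2 technical SD, namely those of Pla2g4a, Ptges and Ptger4 between triple and IFN-g+IL-10RB and that of Hpgds between CpG and IFN-g+IL-10RB. The median log2 fold of triple over IFN-g+IL-10RB was -0.98 over the 10 genes and -0.65 over all genes, with undetected signals at their bounds. The -0.65 was pulled down by the unequal lowest detected signals of the arrays, since genes under both all have -0.83. It is therefore no measure of a shift over all genes. Over the 8 genes well above background on both arrays, which leaves out Ptgs1 and Alox5 because of their low signal in triple, the median was -0.47, and over all such genes -0.04. For triple over CpG the medians were -0.89 over the 10 genes and -0.57 over all genes, where genes under both lowest signals have -0.64. Over those detected on both arrays they were -0.01 and -0.04. For CpG over IFN-g+IL-10RB, with all 10 genes detected on both arrays, they were -0.76 and 0.00 over detected genes. Genes of other cell types were also examined, because platelets, mast cells and neutrophils are known to express several of these enzymes. Of 7 platelet markers, 2 or 3 were well above background, their summed signal was 47446 in CpG, 32089 in IFN-g+IL-10RB and 11110 in triple, of which Pf4 made up 47339, 32005 and 11025, and Itga2b and Gp9 were not well above background on any array. Of 9 mast cell and basophil markers, 1 or 2 were detected, with sums from 127 to 184. Tpsb2 was detected on every array, at 44.3 in CpG, 73.5 in IFN-g+IL-10RB and 42.4 in triple. Kit was detected in CpG at 93.9 and in triple at 48.4, and Cpa3 and Ms4a2 were not detected. Of 7 neutrophil markers, 4 or 5 were detected, with sums of 3844, 9447 and 4873 in CpG, IFN-g+IL-10RB and triple. In that order Ly6g was 555, 7699 and 2658, Elane 2839, 1615 and 1539, and S100a8 297, 55.7 and 517. These were detected on every array, whereas Ltf and Mpo were detected on none. Beside the higher signal of Ptgs2, the sum of 3 dendritic cell markers was 357 in CpG, 287 in IFN-g+IL-10RB and 3038 in triple, mostly from Ccr7, with 1 or 2 detected and Flt3 not well above background on any array. Of 4 fibroblast markers, 2 or 3 were detected, with sums of 581, 333 and 765 in CpG, IFN-g+IL-10RB and triple. In that order Dcn was 80.6, 16.4 and 342, the second not well above background, and Col1a1 was 177, 94.5 and 98.3. Of 3 endothelial markers, 1 or 2 were detected, with Kdr at 5344, 5725 and 5706 and Tek detected on no array. The part of such cells in these differences was not tested.

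The rest of the pathway was followed with a list of 62 other genes. Triple was past 2-fold higher than IFN-g+IL-10RB for 8 of them and lower for 9, higher than CpG for 6 and lower for 8, and CpG was higher than IFN-g+IL-10RB for 6 and lower for 3. The shares of all genes called were 3.56% and 5.82%, 4.12% and 5.6%, and 2.75% and 3.19% in that order. Of the 62 genes, 43, 42 and 41 were detected on either array of these comparisons, and among all such genes the shares were 6.6% and 10.8%, 7.54% and 10.2%, and 5.04% and 5.84%. The counts for smaller groups of the list, given next, are of few genes and stand beside these same shares. Their median log2 fold of triple over IFN-g+IL-10RB was -0.07 over the 38 genes detected on both arrays, beside -0.04 for all genes.

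A group of 18 genes was listed for arachidonic acid release and uptake, and it also held enzymes of platelet-activating factor. Of these 18, 3 were higher in triple than in IFN-g+IL-10RB and 1 was lower, where 3.56% and 5.82% of all genes were. Pla2g7, the secreted enzyme that cleaves platelet-activating factor, was 11386 in CpG, 14031 in IFN-g+IL-10RB and 28993 in triple, 2.65-fold higher than CpG and 2.12-fold higher than IFN-g+IL-10RB. Lpcat2, which makes that factor in activated macrophages, was 441 in CpG, 284 in IFN-g+IL-10RB and 592 in triple, 2.14-fold higher than in IFN-g+IL-10RB. With spike-in scaling or scaling to Actb, Pla2g7 and Lpcat2 no longer passed 2-fold against IFN-g+IL-10RB, and Lpcat2 did not with normexp correction either. Faah, an amidase that frees arachidonic acid from anandamide, was detected in triple alone at 154, at least 5.92-fold higher than in IFN-g+IL-10RB, a call that was lost when the probes of a gene were averaged. Pla2g15, the lysosomal phospholipase, was 3.28-fold lower in triple than in IFN-g+IL-10RB, at 5105 against 17150. Pla2g2e, a secreted phospholipase, was 316 in CpG and 143 in triple, 2.12-fold lower, a call lost with normexp correction.

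Of the 6 genes that inactivate or transport prostaglandins, 2 were lower in triple than in IFN-g+IL-10RB and 2 were higher, beside 5.82% and 3.56% of all genes. Hpgd, the dehydrogenase that inactivates PGE2, had a signal of 222 in CpG, 244 in IFN-g+IL-10RB and 6.09 in triple, where it was not well above background, at least 16.2-fold lower than in IFN-g+IL-10RB and at least 14.6-fold lower than in CpG. Ptgr1, a reductase of oxidized prostaglandins, was 2149, 2196 and 684 in the same order, 3.13-fold and 3.02-fold lower. A second probe of Hpgd gave the same direction, at 103 in CpG, 132 in IFN-g+IL-10RB and 18.4 in triple. Ptgr2, another reductase, was 2723, 2677 and 2093 and passed 2-fold in no comparison. The exporters were higher. Abcc4, which carries prostaglandins out of cells, was 2626 in CpG, 1297 in IFN-g+IL-10RB and 2662 in triple, and Abcc1, the exporter of LTC4, was 8555, 3083 and 8128, so both were higher in triple than in IFN-g+IL-10RB, by 2.11-fold and 2.70-fold, and neither passed 2-fold against CpG. The call of Abcc4 was lost with spike-in scaling, with scaling to Actb, with normexp correction and without spots that had a local background mark.

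Of 7 other prostanoid synthases, Akr1b3, an aldose reductase with PGF2a synthase activity, was 2.22-fold lower in triple than in IFN-g+IL-10RB. Fam213b, another PGF2a synthase, had a signal of 16935 in CpG against 4501 in IFN-g+IL-10RB and 4325 in triple, 3.76-fold lower in triple than in CpG. Ptges2 and Ptges3, the other PGE2 synthases, passed 2-fold in no comparison, and Ptgds was not detected. Of 7 other prostanoid receptor genes and Ptgfrn, which encodes a protein associated with a receptor, Ptgir, the prostacyclin receptor, was the gene that passed 2-fold, at 459 in CpG, 130 in IFN-g+IL-10RB and 418 in triple, 3.28-fold higher in triple than in IFN-g+IL-10RB. Ptger1, Ptgdr, Ptgfr, Tbxa2r and Ptgfrn were not well above background on any array, and Ptger3 and Gpr44 reached at most 35.1 and 37.1.

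Of 14 other enzymes of the leukotriene and lipoxygenase branch, 7 were detected on either array, 3 were lower in triple than in IFN-g+IL-10RB, beside 5.82% of all genes and 10.8% of those detected, and none was higher. Against CpG 3 were lower and 1 was higher. Ltc4s, which makes LTC4, was 1071 in CpG, 1413 in IFN-g+IL-10RB and 514 in triple, 2.68-fold lower than in IFN-g+IL-10RB and 2.001-fold lower than in CpG, just past the threshold. The call against CpG was lost with normexp correction, with the percentile over all probes, with median or quantile scaling and in the authors' table. Dpep2, which converts LTD4 to LTE4, was 13369, 15252 and 5629 in that order, 2.64-fold and 2.28-fold lower. Ggt5, which converts LTC4 to LTD4, was 234 in CpG and 75.6 in triple, 2.98-fold lower, a call lost with normexp correction and when its probes were averaged. Lta4h, the LTB4-forming hydrolase, was 3058, 3012 and 2151 and passed 2-fold in no comparison. Cyp4f18, which degrades LTB4, was 452 in CpG, 3757 in IFN-g+IL-10RB and 1310 in triple, so that triple was 2.80-fold lower than IFN-g+IL-10RB and 3.02-fold higher than CpG. The lipoxygenase genes Alox12, Alox15, Alox8, Aloxe3 and Alox12e were not well above background on any array. Alox12b was dim and detected on every array, at 95.8 in CpG, 84.6 in IFN-g+IL-10RB and 100 in triple. Its other probe was detected in CpG only, at 33.9.

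The receptors of this branch went in different directions. Cysltr1, the first cysteinyl leukotriene receptor, was 3818 in CpG, 4296 in IFN-g+IL-10RB and 941 in triple, 4.45-fold and 3.90-fold lower than IFN-g+IL-10RB and CpG. Cysltr2 was 97.0, 1335 and 2245 in the same order, 24.1-fold higher in triple than in CpG. Ltb4r1, the high-affinity LTB4 receptor, was dim at 75.9, 164 and 56.4, and 2.83-fold lower in triple than in IFN-g+IL-10RB, a call lost with normexp correction. Fpr2, a receptor for lipoxin A4 and formyl peptides, was 6455, 1343 and 63371, 48.4-fold higher in triple than in IFN-g+IL-10RB, and Fpr1, a formyl peptide receptor, was 20789, 311 and 58951, 194-fold higher.

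**Figure D4:**
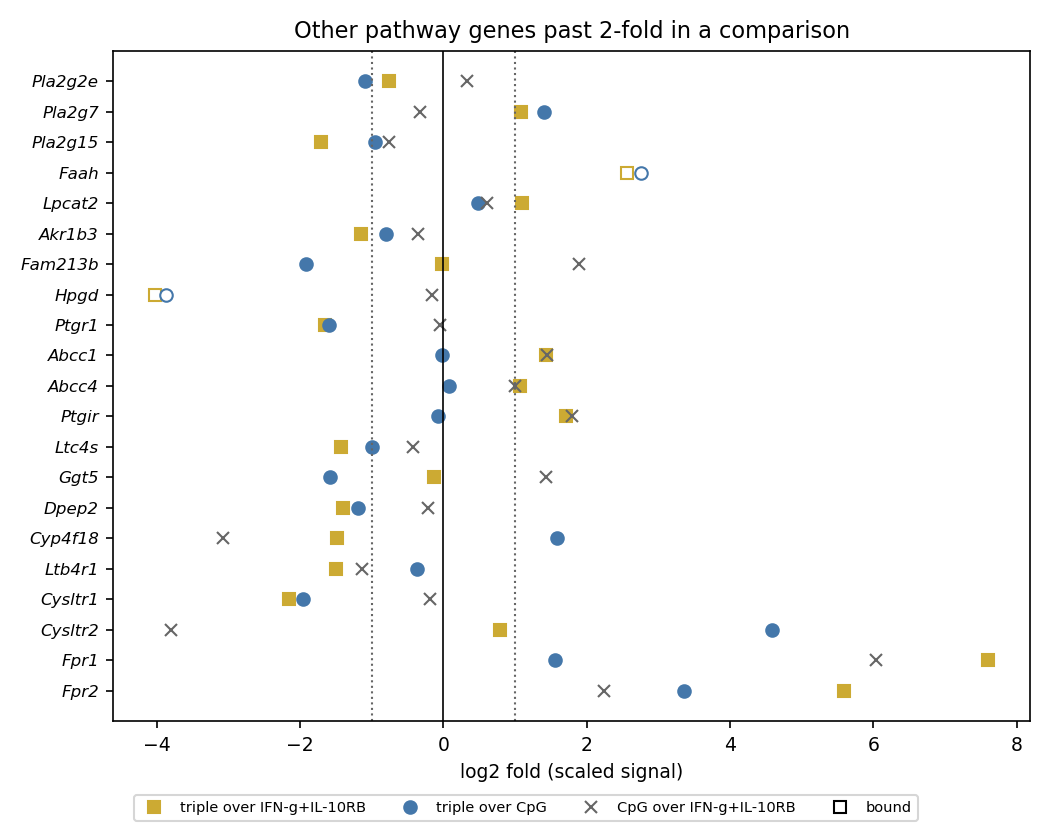
Log2 fold of the scaled signal for the 21 other pathway genes past 2-fold in at least 1 comparison, with triple over IFN-g+IL-10RB as squares, triple over CpG as circles and CpG over IFN-g+IL-10RB as crosses; open symbols are bounds and dotted lines mark 2-fold. Hpgd, Ptgr1, Dpep2 and Cysltr1 lie below the line in both comparisons of triple, and Fpr1 and Fpr2 lie above it in all 3.

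Within 200 kb of the Ptgs2 probe the array carried 10 probes of other names. Of these, 8 belong to a long noncoding locus that the array names by its place, chr1:152001112-152012796 of mm9, with the probes about 53 kb from that of Ptgs2. All 3 probes with the suffix R were well above background in triple, at 244, 47.3 and 51.0, and none was in CpG or IFN-g+IL-10RB. By the brightest, triple was at least 9.40-fold higher than IFN-g+IL-10RB and at least 10.7-fold higher than CpG. The 5 probes with the suffix F, for the opposite strand, were not well above background on any array, nor were the other 2 probes. Which transcript these probes detect was not tested.

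The genes most like each of these genes over the 3 arrays were taken as those with the smallest distance between their log2 values after each gene was centred, among 10913 genes with a symbol that were detected on all arrays. For Ptgs2 they were Nos2, the inducible nitric oxide synthase, Thbs1, which encodes thrombospondin 1, and Procr, the protein C receptor, at log2 distances of 1.13, 1.497 and 1.75. Nos2 had signals of 155 in CpG, 450 in IFN-g+IL-10RB and 72449 in triple. For Tbxas1 they were Hdac9, Tgfb3 and Icam2, for Hpgds Phf17, Shmt1 and Fam213a, and for Alox5ap Slc46a3, Cenpa and Elovl6. Pla2g4a had Dennd6b, Apobec3 and Apol9a, Ptger2 had Map4k1, Pml and Shc4, and Ptger4 had Rab31, Ctsl and Wwc2. The distance was 0.12 at most for these 18 genes, whereas the nearest gene to Ptgs2 was 1.13 away. With 3 arrays such a likeness is a description.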

How the data were processed

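The authors deposited the scanner output of each array (Agilent Feature Extraction 10.10.1.1), which gives each spot an intensity from which a fitted background has been subtracted, and a table of log2 values. Set beside the scanner output, that log2 table of the authors differed from it by a constant for each array. The build of the probe positions is mm9 per the file headers. Controls and spots that the software marked as outliers (0.212% to 0.275%) were dropped, and log2 values of repeated spots were averaged for each probe. This left 55659 probes and 34813 gene names on all arrays. On average 44.2% of probes were well above background, so the 75th percentile was taken over the 22383 probes detected on all arrays. Undetected signals under the lowest detected signal of their array (23.8 for CpG, 26.7 for IFN-g+IL-10RB, 14.6 for triple) were set to that value. With 1 array per condition there was no test.

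The members and gene lists were chosen with earlier results of these data known. Genes named are all members, every listed pathway gene past 2-fold, markers, and the 3 genes nearest each member that was detected on all arrays and past 2-fold; others, such as undetected genes, were named after their values were seen. Promoter windows came from RefSeq and were used with GRCm38.p6 coordinates. Alternatives were normexp background correction (offset 50), the 75th percentile over all probes, median, quantile, spike-in, Actb and no scaling, the authors' table, both arrays detected, no filter, the mean of a gene's probes, all outlier spots retained, 1.5-fold and 3-fold as thresholds, and, chosen after seeing the data, spots with a local background mark left out. The code was tested on simulated data in which every changed gene was detected on all arrays. Folds with 1 undetected array were therefore not covered by that test. Python 3.11.15, numpy 2.4.6, pandas 2.3.3, matplotlib 3.10.9, R 4.3.3 and limma 3.58.1 were used.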

Additional observations from a re-analysis of the deposited data

How the results depend on the processing

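Of 19 folds of the 10 genes that passed 2-fold, 18 did so under every alternative that gave a value, none changed sign, and the exception was Tbxas1 for CpG over IFN-g+IL-10RB, with a log2 fold of -0.99 when its probes were averaged. Ptgs2 in triple ranged from 5.67 to 5.97 over IFN-g+IL-10RB and from 7.14 to 7.81 over CpG, and the bound of Alox5 from -4.22 to -1.07 and from -6.34 to -2.72. Averaging the probes of Ptges gave 3.09 and 2.80 for triple over IFN-g+IL-10RB and CpG, so that 2 of the 10 genes were then higher in triple than in IFN-g+IL-10RB in place of 1, a direct result of its disagreeing probes. When both arrays had to be detected, 3 genes in place of 5 were lower in triple, against either array, since Ptgs1 and Alox5 then have no value. At 3-fold, triple over CpG had 1 higher and 3 lower, and CpG over IFN-g+IL-10RB had 1 higher and 2 lower. Over all 34813 genes these counts at 3-fold were 733 and 911, and 439 and 536. Averaging probes left 1022 of all genes higher in triple than in IFN-g+IL-10RB in place of 1238. With both arrays detected, 1382 in place of 2026 of all genes were lower in triple than in IFN-g+IL-10RB, and 1184 in place of 1949 than in CpG.

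For the 62 other pathway genes, normexp correction gave 5 lower in triple than in CpG in place of 8, and 999 in place of 1949 over all 34813 genes. Spike-in scaling gave 5 higher in triple than in IFN-g+IL-10RB in place of 8, and scaling to Actb also gave 5, with Pla2g7, Lpcat2 and Abcc4 lost in each. Over all genes these scalings gave 997 and 1094 higher in place of 1238. Without a filter, 10 in place of 6 were higher in triple than in CpG, and 6 in place of 3 were lower in CpG than in IFN-g+IL-10RB. The counts over all genes rose likewise, from 1435 to 2869 and from 1109 to 2559. At 1.5-fold, CpG over IFN-g+IL-10RB had 10 higher and 5 lower, beside 2135 and 2425 of all genes. At 3-fold, triple had 4 higher and 4 lower than IFN-g+IL-10RB and 4 lower than CpG, beside 645, 991 and 911 of all genes. Where no cause is given, the cause was not tested.

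The median of all detected genes for triple over IFN-g+IL-10RB was -0.04, and it was -0.20 with spike-in scaling and 0.07 with the percentile over all probes. Spike-in scaling also turned the log2 fold of Pla2g4a in this comparison to -0.16 and that of Ptges to -0.12. The number of all genes higher in triple than in IFN-g+IL-10RB, 1238, became 2625 without a filter and 645 at 3-fold. Leaving out spots with a local background mark removed Alox5ap from the arrays and left 33597 genes. Signals near background, as for Ptgs1 and Alox5 in triple, give nominal bounds and no size. No paired analysis was possible because there was only 1 array for each condition.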
